A study of Mus musculus with 2 samples.

Results

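The genes described here are 38 glycolysis and hypoxia-response genes, matched by symbol among the 55357 genes of the deposited feature lists, and all 38 were found. They were kept as 23 genes of the glycolytic route (enzymes, glucose and lactate transporters, and the regulators Pdk1, Pfkfb3 and Pfkfb4) and 15 other genes of the hypoxia-inducible factor (HIF) axis, here called HIF genes. The cells were leukocytes sorted as CD45+ 7-AAD- from tumours of MC38, a mouse colon carcinoma line grown in mice, and were profiled by droplet single-cell RNA sequencing of transcript 3′ ends. The 1 control library came from SPP1fl/fl mice, whose Spp1 gene carries loxP sites and is not cut. The 1 other library came from SPP1fl/fl-Lyz2-icre mice, which carry the same floxed Spp1 allele and express Cre from the myeloid gene Lyz2, so both groups share the floxed allele. Neither the number, age nor sex of the mice nor whether tumours were pooled was stated.

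After filtering, 8724 control and 13915 Lyz2-icre cells remained, with a median of 9380 and 6374 unique molecular identifiers (UMIs, each a counted transcript molecule) per cell. The libraries shared 43 cell barcodes. Cells were assigned by marker UMIs: 5653 control cells (64.8%) and 10282 Lyz2-icre cells (73.9%) were macrophage-like, defined by high C1qa, C1qb and C1qc, and 9 other classes held at least 50 cells in both libraries. All 9 macrophage markers were at or above 10 CPM (UMIs of the gene per 1000000 UMIs of the cell class) in the macrophage-like cells of both libraries. This does not set the class apart, since C1qa, C1qb and C1qc made its gate. All 9 also reached 10 CPM in ungated, monocyte-like, regulatory T-like and other T cells of both libraries. Summed, gate genes included, they were at 25843 and 24830 CPM in macrophage-like cells and at most 4744 and 4375 CPM in the other classes. In macrophage-like cells Spp1 was at 661 CPM in the control library and 3.62 CPM in the Lyz2-icre library, and Lyz2, the gene that drives Cre, was at 11483 and 4014 CPM. C1q transcripts in CD8 T cells stood at 3.39% of the macrophage-like level in the control library and 2.92% in the Lyz2-icre library. This is only a rough measure of free RNA in the droplets, since cells of this class had to hold fewer than 15 C1q UMIs per 10000. Each library held both cells with Xist and no Y-linked UMI and cells with Y-linked UMIs (Ddx3y, Eif2s3y, Kdm5d, Uty) and no Xist, so each holds cells of at least 2 animals, and values are given below for both kinds of cell where each library held at least 50 of them. With 1 library per genotype no difference can be tested. Genotype, library and animals cannot be told apart, and every interval below is a 95% interval that covers counting error only.

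Glycolysis turns glucose into pyruvate in the cytosol, and lactate dehydrogenase turns pyruvate into lactate that leaves the cell. When oxygen is low, the prolyl hydroxylases encoded by Egln1 and Egln3 no longer mark HIF alpha subunits for destruction, and HIF then binds DNA at hypoxia response elements and raises most glycolytic genes together with genes for mitophagy, lipid storage and oxygen sensing. Macrophages in poorly perfused parts of tumours are a well-known site of this response, and Arg1 is among the genes high in such cells.

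The HIF binding core is short, and the letters ACGTG or GCGTG were searched on both strands in RefSeq promoter windows (build GRCm38.p6, 250 bases before to 50 after each start), with matches that overlap (as in CACGTG) counted once. A window was found for 35 of the 38 genes, the others being Bnip3l, Ndrg1 and Slc2a3. At any annotated start, 33 of the 35 genes held at least 1 match and 25 held at least 2 (71.4%), while 46.7% of all 27025 genes with a window held 1 or more and 19.3% held at least 2. Genes with more annotated starts had more windows to search, and the shares were not adjusted for this. Of all 32851 windows taken singly, 43.8% held at least 1 match. The 250 bases before the start are shown for 5 genes on which the results below turn, with matches in capitals: Bnip3 (chr7:138909507-138909756, minus strand), Egln3 (chr12:54203875-54204124, minus strand), Pgk1 (chrX:106186850-106187099, plus strand), Slc2a1 (chr4:119108495-119108744, plus strand) and the second start of Hilpda (chr6:29272376-29272625, plus strand). Each is written 5′ to 3′ on the strand of the gene. A match describes the sequence and is not evidence of binding.
Bnip3: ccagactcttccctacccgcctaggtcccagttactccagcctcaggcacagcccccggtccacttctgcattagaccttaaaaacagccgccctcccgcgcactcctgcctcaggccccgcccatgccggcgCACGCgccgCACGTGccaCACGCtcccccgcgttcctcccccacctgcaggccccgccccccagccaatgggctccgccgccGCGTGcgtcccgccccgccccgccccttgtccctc
Egln3: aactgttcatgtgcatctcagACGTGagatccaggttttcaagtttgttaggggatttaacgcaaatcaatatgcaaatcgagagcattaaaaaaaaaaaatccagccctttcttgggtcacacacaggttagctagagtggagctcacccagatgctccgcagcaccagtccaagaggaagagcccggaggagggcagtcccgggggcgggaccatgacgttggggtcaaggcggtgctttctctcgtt
Pgk1: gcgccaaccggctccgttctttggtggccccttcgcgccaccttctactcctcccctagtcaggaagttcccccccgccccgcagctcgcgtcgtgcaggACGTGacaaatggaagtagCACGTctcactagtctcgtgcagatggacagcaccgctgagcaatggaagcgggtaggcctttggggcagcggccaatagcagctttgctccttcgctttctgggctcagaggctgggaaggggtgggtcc
Slc2a1: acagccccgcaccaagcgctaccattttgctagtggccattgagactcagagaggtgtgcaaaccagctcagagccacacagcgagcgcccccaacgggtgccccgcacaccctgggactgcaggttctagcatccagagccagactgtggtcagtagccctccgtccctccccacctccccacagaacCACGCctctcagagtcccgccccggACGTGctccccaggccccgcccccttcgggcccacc
Hilpda: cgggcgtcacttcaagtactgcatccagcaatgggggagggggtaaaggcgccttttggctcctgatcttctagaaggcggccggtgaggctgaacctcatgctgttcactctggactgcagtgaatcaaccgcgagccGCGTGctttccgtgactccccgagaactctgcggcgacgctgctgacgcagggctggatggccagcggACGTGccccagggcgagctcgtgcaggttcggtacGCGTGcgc
Bnip3 carried 4 matches within its window and Egln3 carried 1. Pgk1 and Slc2a1 each carried 2, and the Hilpda start shown carried 3. Mif, whose values are given below, held 1 match, located in the 50 bases after its start, and the windows of Tpi1 and Gpi1 held none.

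In macrophage-like cells the glycolytic genes stood higher in the Lyz2-icre library than in the control library. Of the 23 genes, 20 reached 10 CPM in at least 1 library. Their median ratio, Lyz2-icre over control, was 1.18, and 16 were above 1. The median over the 7907 genes that passed the same level filter was 0.988. A gene was called higher where its level was at least 25% higher, and lower where it was at least 20% lower, which is the same fold downward. By this rule 6 glycolytic genes were higher and 0 lower, against 3.17% of all genes higher and 5.98% lower.

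Of the 6 genes called higher, 4 (Pgk1, Aldoa, Ldha and Tpi1) encode enzymes from aldolase onward, and the others were Hk1 and Pdk1. Pgk1, which makes the first ATP of the pathway, was at 495 CPM in the control library and 714 CPM in the Lyz2-icre library, a ratio of 1.44 (interval 1.42 to 1.46). Aldoa, which splits fructose bisphosphate, was at 625 and 864 CPM (ratio 1.38, interval 1.36 to 1.40). Ldha, the lactate-forming subunit of lactate dehydrogenase, was at 705 and 928 CPM (ratio 1.32, interval 1.30 to 1.33). All 3 were counted often enough that the counting error is small beside the difference. Tpi1, which interconverts the triose phosphates, was at 481 and 619 CPM (ratio 1.29). Gapdh, often used as a reference gene, had the most UMIs of the group, 1976 and 2443 CPM, with a ratio of 1.24. Also just under the 25% line lay Pkm, the pyruvate kinase of the last step, at 858 and 1060 CPM. Pgam1 (ratio 1.19) and Eno1 (ratio 1.13), the enzymes between Pgk1 and Pkm, were also above 1.

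The transporters, the upstream enzymes and the regulators had ratios on both sides of 1. Slc2a1, the glucose transporter GLUT1, was at 99.1 and 117 CPM (ratio 1.18, interval 1.14 to 1.22), and Slc16a3, the lactate exporter MCT4, at 133 and 158 CPM (ratio 1.19). Hk1, a hexokinase, was at 34.9 and 47.9 CPM (ratio 1.37), while the second hexokinase, Hk2, was at 91.6 CPM in both libraries (interval of the ratio 0.965 to 1.04). Hk2 therefore made up 72.4% of the UMIs of both hexokinases in the control library (exact binomial interval 71.4 to 73.4%) and 65.7% in the Lyz2-icre library (64.7 to 66.6%). Gpi1, which makes fructose phosphate, and the phosphofructokinases Pfkl and Pfkp had ratios of 1.16, 1.15 and 1.05. Pdk1, a kinase that inhibits pyruvate dehydrogenase, was at 32.8 and 41.5 CPM (ratio 1.27). Pfkfb3 and Pfkfb4, which make the activator of phosphofructokinase, had ratios of 0.955 and 0.975, with intervals that included 1. Ldhb, the subunit that favours pyruvate, was at 18.6 and 17.0 CPM (ratio 0.912, interval 0.841 to 0.989), and Slc16a1 was near 10 CPM in both. Pfkm (3.25 and 3.87 CPM), Eno3 (8.90 and 9.36 CPM) and Slc2a3 (3.75 and 2.29 CPM) did not reach 10 CPM. Counts for Eno1 and Mif share sequence with copies elsewhere: 746 UMIs were assigned to Eno1b beside 63815 to Eno1, and 671 to the pseudogene Mif-ps4 beside 108628 to Mif, so a small part of these counts is uncertain.

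HIF genes in macrophage-like cells showed a similar pattern with a wider range. Of 15 genes, 12 reached 10 CPM, with a median ratio of 1.24, and 10 were above 1. Of these, 6 were called higher and 0 lower, against the same 3.17% and 5.98% of all genes. Mif, a secreted cytokine, was at 425 CPM in the control library and 734 CPM in the Lyz2-icre library, the largest ratio of the 32 genes that passed (1.72, interval 1.70 to 1.75). Bnip3, a mitophagy receptor of the outer mitochondrial membrane, was at 90.7 and 147 CPM (ratio 1.62, interval 1.57 to 1.68), and its relative Bnip3l was at 84.5 and 106 CPM (ratio 1.26). Of the sensors, Egln3 was at 20.6 and 29.8 CPM (ratio 1.45, interval 1.35 to 1.56) and Egln1 at 49.9 and 60.5 CPM (ratio 1.21). These values put both mitophagy receptors and both hydroxylases on the higher side in the Lyz2-icre library. Ankrd37, an ankyrin-repeat gene known as a HIF target, was at 32.8 and 47.4 CPM (ratio 1.44), and Higd1a, a mitochondrial protein induced by hypoxia, at 109 and 140 CPM (ratio 1.29). Hif1a itself, encoding the alpha subunit, was at 179 and 201 CPM (ratio 1.12), Ndrg1 at 100.4 and 123 CPM (ratio 1.22), and P4ha1, a collagen prolyl hydroxylase, at 116 and 128 CPM (ratio 1.11).

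Hilpda went the other way. This lipid-droplet protein, which inhibits the lipase Atgl, was at 174 CPM in the control library and 144 CPM in the Lyz2-icre library (ratio 0.831, interval 0.809 to 0.853). Mxi1, a Myc antagonist, was at 58.0 and 55.3 CPM (ratio 0.953). Ddit4, an inhibitor of mTORC1 signalling, stayed under 10 CPM in both libraries (9.63 and 9.33 CPM). Ak4, a mitochondrial adenylate kinase, and Adm, the vasodilator adrenomedullin, were also under 10 CPM, at 4.72 and 9.78 CPM and at 0.897 and 4.14 CPM. Their UMI counts, 284 and 738 for Ak4 and 54 and 312 for Adm, gave ratios of 2.07 (1.81 to 2.39) and 4.61 (3.45 to 6.28).

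The higher level in the Lyz2-icre library was not seen in all macrophage-like cells. Among the 3385 control and 5875 Lyz2-icre cells with Xist and no Y-linked UMI, the median ratio was 1.43 for the glycolytic genes (16 of 20 at least 25% higher, 0 lower) and 1.53 for the HIF genes (11 of 13 higher, 0 lower), against 5.92% of all genes higher and 11.2% lower. Among the 1359 control and 1886 Lyz2-icre cells with Y-linked UMIs and no Xist, the medians were 0.939 (1 of 21 higher, 4 lower) and 0.910 (1 of 13 higher, 5 lower), against 11.9% of all genes higher and 8.18% lower. The direction of both medians thus differed between cells of the 2 sexes, without a test, since each sex and genotype is 1 set of cells from an unstated number of animals.

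**Figure D1:**
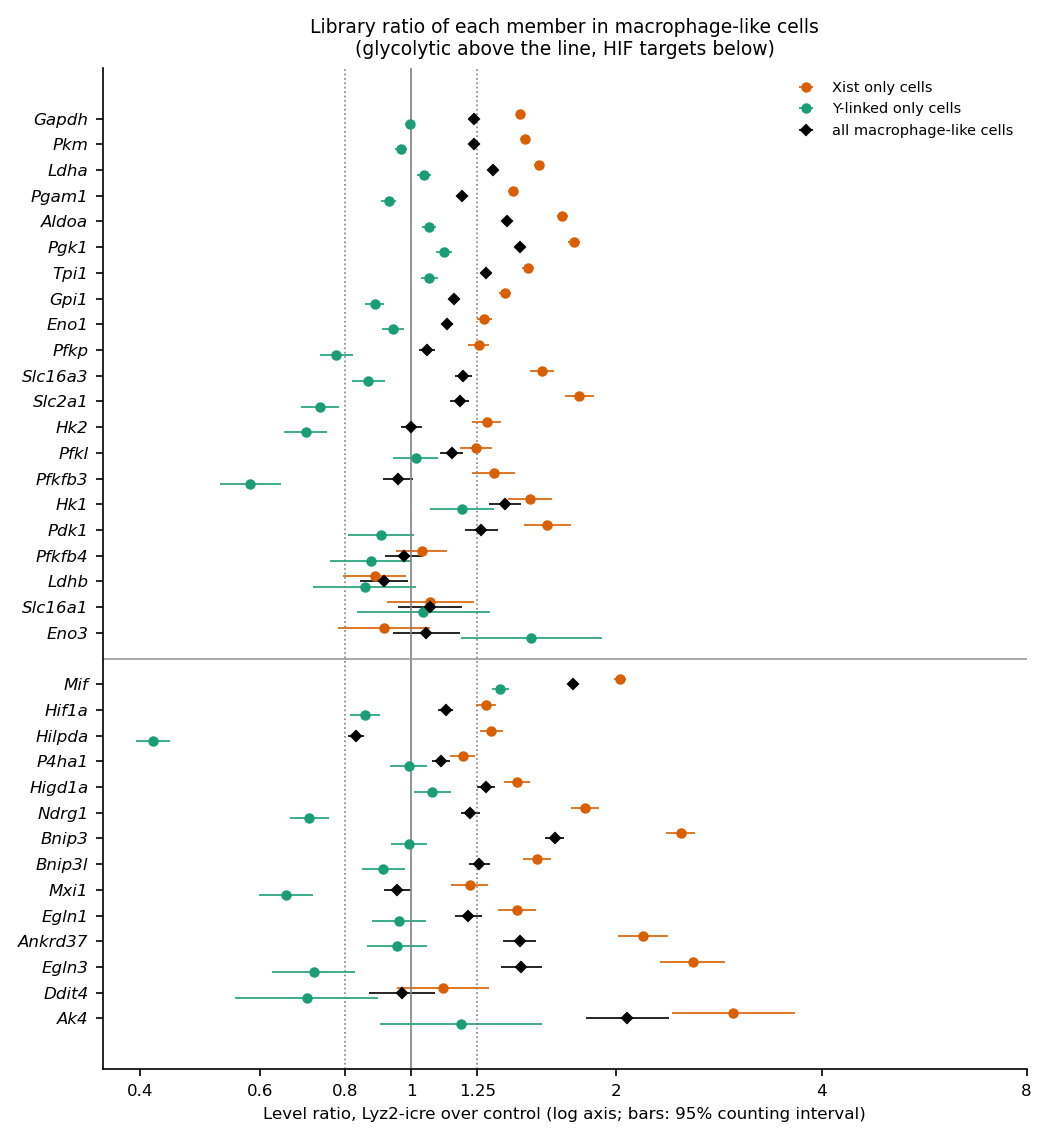
Ratio of the level in the Lyz2-icre library to that in the control library (x axis, log scale) for each gene at 10 CPM or more in at least 1 of the groups drawn, over all macrophage-like cells (black diamonds), cells with Xist only (orange) and cells with Y-linked transcripts only (green). Bars are 95% counting intervals and dotted lines mark 25% higher and 20% lower. Most orange points lie right of the upper dotted line and most green points lie left of 1, with Mif right of that line in both.

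For these genes the control cells with Xist were the group that stood apart. Of the 4 groups, they had the lowest level of 18 of 21 glycolytic genes and 12 of 14 HIF genes at 10 CPM or more. The share of all genes lowest in this group was not counted. Over all genes, the median ratios to control Xist cells were 0.953 in control Y-linked, 0.960 in Lyz2-icre Xist and 0.989 in Lyz2-icre Y-linked cells. Summed over the 23 glycolytic genes, the level was 6191 CPM in control Xist cells, 9023 CPM in control Y-linked cells, 9127 CPM in Lyz2-icre Xist cells and 8858 CPM in Lyz2-icre Y-linked cells. The HIF genes summed to 1210, 1845, 2014 and 1765 CPM in the same order. Within the control library the Y-linked cells were higher than the Xist cells by a median of 1.42 for glycolytic genes (16 of 20 at least 25% higher) and 1.46 for HIF genes (12 of 13), against 5.86% of all genes, and within the Lyz2-icre library the same medians were 0.968 and 0.863, with 1 of 21 and 0 of 13 genes higher, against 5.85% of all genes, and 0 and 5 lower, against 4.73%. Set against the control Xist cells, the Lyz2-icre Y-linked cells gave medians of 1.41 and 1.36 (14 of 21 and 7 of 12 genes higher, against 6.78% of all genes). The sum of 25 nuclear genes of oxidative phosphorylation ran from 6622 CPM in control Xist cells to 7005 CPM in Lyz2-icre Y-linked cells, a narrower range than that of either gene group.

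Other quantities moved with these groups. Median UMIs per cell were 9671 and 11112 in control Xist and Y-linked cells and 6822 and 7759 in the Lyz2-icre ones, and median mitochondrial shares were 1.67%, 1.52%, 0.789% and 0.754%. Arg1 was at 555, 969, 1429 and 602 CPM in the same order, and Lyz2 at 11568, 11896, 2855 and 6106 CPM. The summed level of immediate-early and heat-shock genes was 10292, 8671, 9132 and 8993 CPM, highest in the control Xist cells. The part of depth, of mitochondrial share and of these genes in the result was not tested.

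**Figure D2:**
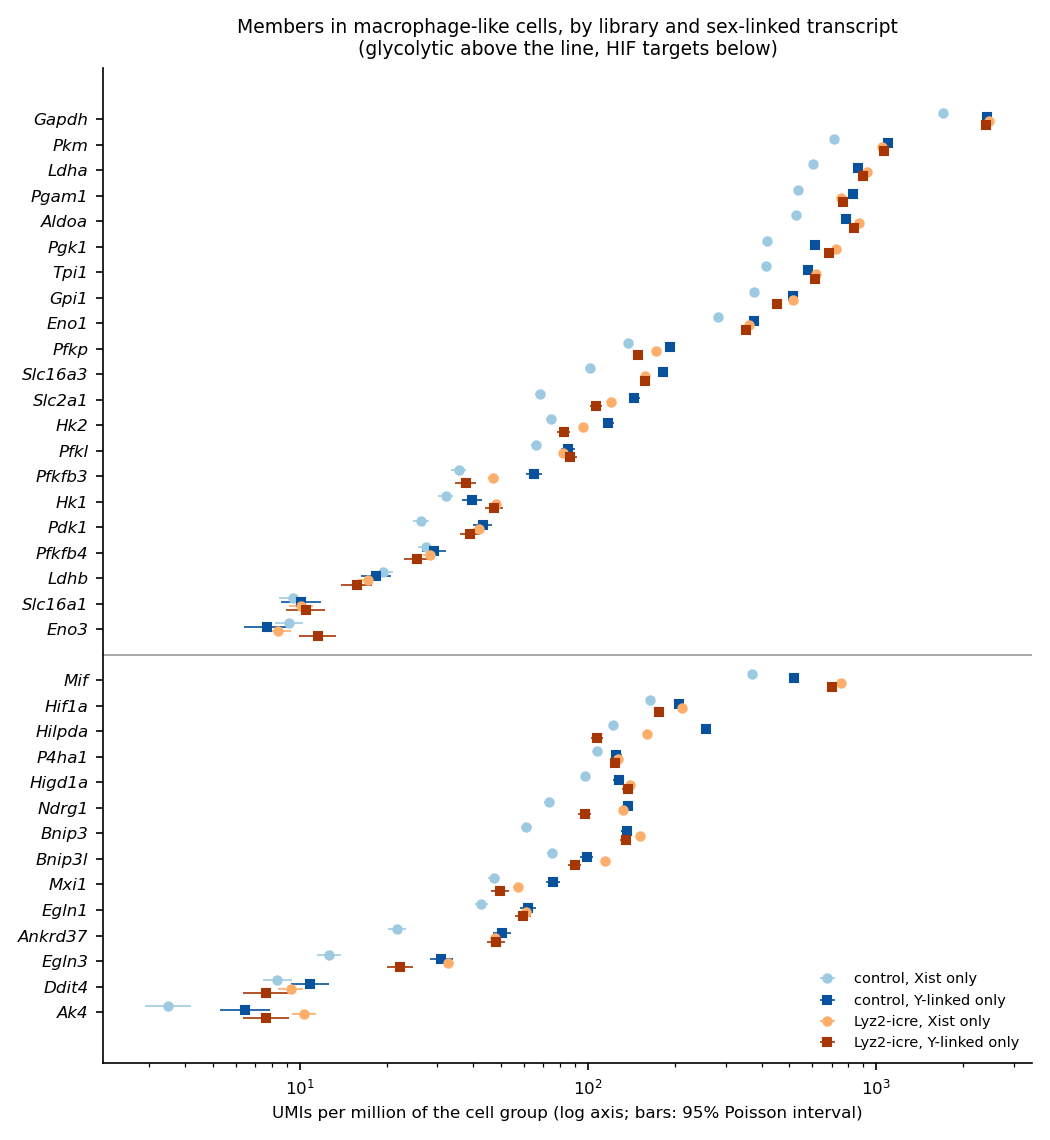
Level in CPM (x axis, log scale) of each gene at 10 CPM or more in at least 1 group, in macrophage-like cells of 4 groups set by library and sex-linked transcripts, with 95% Poisson intervals. The pale blue circles, control cells with Xist, lie left of the other groups for 18 of 21 glycolytic genes and 12 of 14 HIF genes. The share of all genes lowest in these cells was not counted.

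Single genes showed how unevenly the sexes differed. Bnip3 was at 61.0 CPM in control Xist cells and 152 CPM in Lyz2-icre Xist cells (ratio 2.48, interval 2.36 to 2.61), but at 136 and 135 CPM in Y-linked cells (ratio 0.993). Slc2a1 was at 68.1 and 120 CPM in Xist cells (ratio 1.76) and at 145 and 106 CPM in Y-linked cells (ratio 0.734, interval 0.689 to 0.783). Egln3 was at 12.6 and 32.6 CPM in Xist cells (ratio 2.59) and at 31.0 and 22.3 CPM in Y-linked cells (ratio 0.720). For these 3 genes the control Y-linked cells were close to or above the Lyz2-icre cells. Pgk1 was at 419 and 725 CPM in Xist cells (ratio 1.73) and at 613 and 684 CPM in Y-linked cells (ratio 1.12, interval 1.09 to 1.15). Hilpda was at 123 and 160 CPM in Xist cells (ratio 1.31) and at 257 and 107 CPM in Y-linked cells (ratio 0.418, interval 0.394 to 0.442), the lowest ratio of any of the genes in these cells. Mif was higher in both: 372 and 752 CPM in Xist cells (ratio 2.02) and 519 and 701 CPM in Y-linked cells (ratio 1.35, interval 1.31 to 1.39). Of the genes at 10 CPM, the only other one called higher in Y-linked cells was Eno3, at 7.70 and 11.5 CPM. Higher in Xist cells and lower in Y-linked cells by the rule for calls were 7 of the 35 genes at 10 CPM in any of the 4 groups (Hk2, Pfkp, Slc2a1, Pfkfb3, Ndrg1, Egln3 and Hilpda), against 1.02% of 8098 genes, and the reverse held for 0 of the 35, against 1.99%. Adm was at 0.608 and 5.61 CPM in Xist cells and 1.17 and 1.53 CPM in Y-linked cells.

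Within each library most of these genes were higher in macrophage-like cells that held Arg1 transcripts. To compare cells at equal depth, 2000 UMIs were drawn from each cell. Shallower cells, 360 from the control and 1136 from the Lyz2-icre library, could not be used. An Arg1 UMI was found in 36.7% of control cells (exact binomial interval 35.4 to 38%) and 55.8% of Lyz2-icre cells (54.8 to 56.8%). At full depth the shares were 56.0% and 69.6%. NK cells, which should lack Arg1, had a UMI in 3.90% and 7.46% of cells at 2000 UMIs, with median depths of 6564 and 4273 UMIs beside 10111 and 6822 in the macrophage-like cells. In the control library the median level in cells with an Arg1 UMI over cells with none was 1.71 for glycolytic genes (15 of 19 at least 25% higher) and 2.01 for HIF genes (13 of 13), against 7.17% of all genes. In the Lyz2-icre library it was 1.58 (16 of 21) and 1.91 (13 of 14), against 6.66% of all genes.

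**Figure D3:**
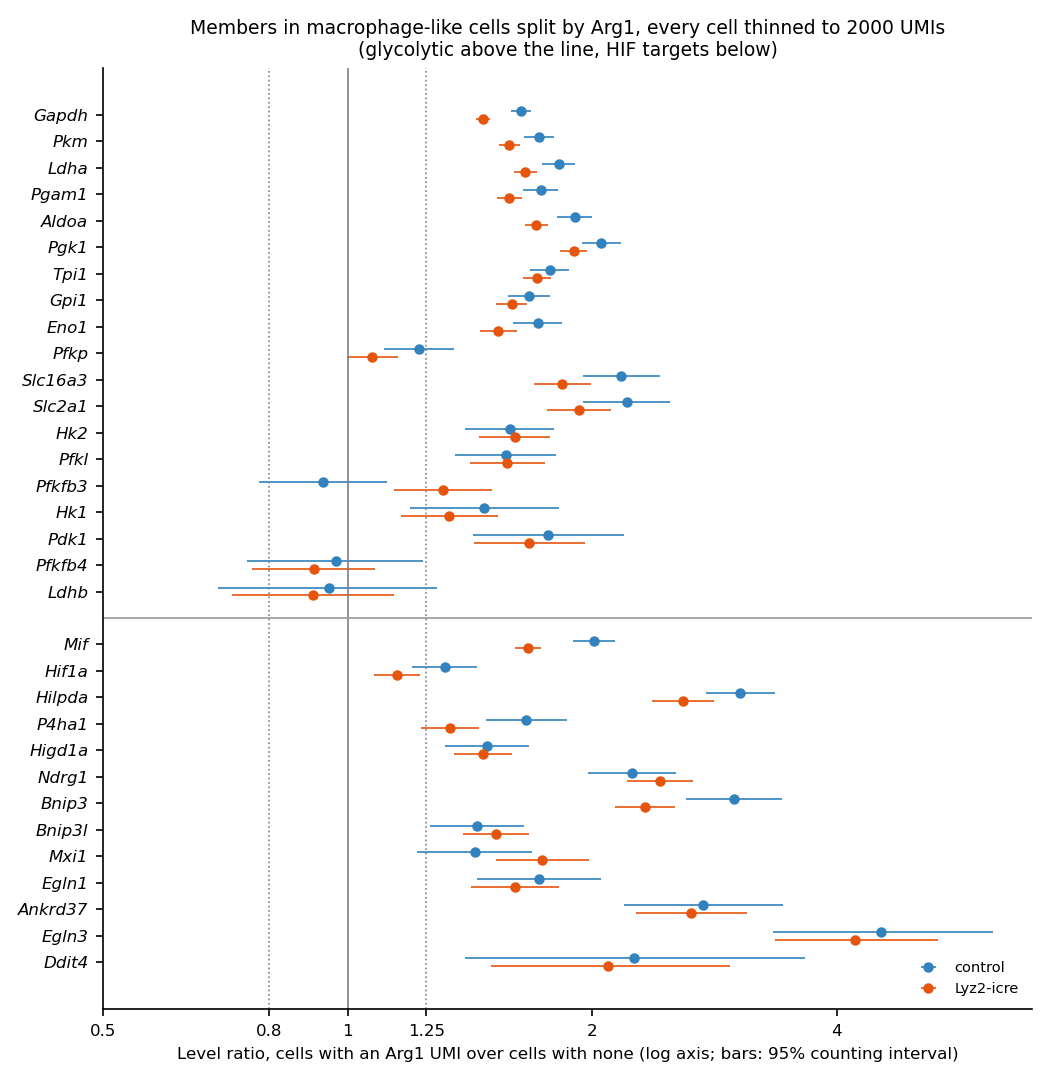
Ratio of the level in macrophage-like cells with an Arg1 UMI to that in cells with none (x axis, log scale), each cell thinned to 2000 UMIs, for the control library (blue) and the Lyz2-icre library (orange), with 95% counting intervals. Most genes lie right of the upper dotted line in both libraries, with Egln3 farthest right (4.54 and 4.21), and Pfkfb4 (0.968 and 0.908) and Ldhb (0.948 and 0.907) lie just left of 1.

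Arg1-positive cells were 30.8% of control Xist cells, 46.6% of control Y-linked cells, 62.0% of Lyz2-icre Xist cells and 41.6% of Lyz2-icre Y-linked cells. The 4 groups stood in the same order by the glycolytic and HIF sums given above. Outside control Xist cells, however, the glycolytic sums were close, from 8858 to 9127 CPM. Arg1 is itself in the list of further HIF-related genes described below. The library ratio was also read within each side of the split by Arg1. In Xist cells with an Arg1 UMI the median ratio, Lyz2-icre over control, was 1.23 for glycolytic and 1.44 for HIF genes, and in Xist cells with none it was 1.30 and 1.30. In Y-linked cells the corresponding medians were 1.0 and 1.03 with an Arg1 UMI and 0.923 and 0.873 without. On the sides of the 5 other splits described next, the Xist medians ran from 1.37 to 2.02 for glycolytic and from 1.42 to 2.39 for HIF genes, the highest being in cells with a Ccl8 UMI. These values are at 2000 UMIs per cell, and the part of Arg1-positive cells in the library difference was not tested.

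Splits by other genes gave smaller or inconstant differences. Cells with a UMI of the cycling genes Mki67 or Top2a were lower in both gene groups, with medians of 0.805 and 0.743 in the control library (0 of 19 and 0 of 12 higher, 9 and 8 lower, against 23.2% of all genes higher and 9.05% lower) and 0.851 and 0.700 in the Lyz2-icre library (6 of 20 and 10 of 14 lower, against 7.83%). Cells with a UMI of the chemokine gene Ccl8 were lower in the control library (medians 0.732 and 0.755, with 12 of 19 and 8 of 12 genes lower against 12.7% of all genes). In the Lyz2-icre library the Ccl8 medians were 0.990 and 1.01, with 0 of 20 and 1 of 15 genes higher against 8.23% and 2 and 2 lower against 6.06%. For Il1b, an inflammatory cytokine gene, the control medians were 1.21 and 1.32 (6 of 19 and 7 of 12 genes higher against 8.44% of all genes), and the Lyz2-icre medians were 0.971 and 0.942, with 0 genes higher against 5.76% and 0 lower against 7.55%. For the chemokine gene Cxcl9 the control medians were 1.07 and 1.01 (2 of 19 and 0 of 12 higher against 8.96%, 0 and 1 lower against 12.3%), and the Lyz2-icre medians were 0.945 and 0.863 (0 higher against 6.43%, 2 of 20 and 6 of 14 lower against 4.79%). Of these genes, Arg1 thus marked the difference in the same direction and to a similar size in both libraries, as did the cycling genes in the opposite direction, while the differences by Ccl8 and Il1b were seen in the control library. Whether the libraries differ in this was not tested. Chil3 transcripts were found in 4.87% and 6.22% of cells, and the 4 medians by Chil3 lay between 0.917 and 1.04. Over single macrophage-like cells at 2000 UMIs, the summed UMIs of the 23 glycolytic genes and of the HIF genes other than Hif1a had a Spearman correlation of 0.581 in 5293 control cells and 0.615 in 9146 Lyz2-icre cells. Cells of a library share the animals and the depth, so this is a description.

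In the other 9 classes the medians lay on both sides of 1, from 0.799 to 1.12 for glycolytic genes and from 0.872 to 1.15 for HIF genes. The medians over all genes in these classes ran from 0.953 in NK-like cells to 1.05 in ungated C1q-low cells. The medians of both gene groups depended on how classes were drawn. In 6 classes built by clustering instead of gates they ran from 1.04 to 1.20 and from 1.01 to 1.22. Clustering used all kept cells, including the 669 control and 844 Lyz2-icre cells that passed more than 1 gate and include doublets. The part of those cells in the clustered medians was not tested. Genes are named below by the 2 highest and 2 lowest ratios among those at 20 CPM and 30 UMIs. In the C1q-low cells that passed no gate (824 control and 1047 Lyz2-icre cells, with Csf1r at 360 and 339 CPM), the medians were 0.935 and 0.945, with 2 of 21 and 2 of 14 genes called higher against 17.9% of all genes, and 2 and 4 lower against 9.73%. By sex-linked transcripts the medians were 1.02 and 0.996 in Xist cells and 0.767 and 0.602 in Y-linked cells of this class. Arg1 in these cells was at 1638 CPM in the control and 692 CPM in the Lyz2-icre library. The make-up of this class also differed: 6 neutrophil markers summed to 1340 and 282 CPM, and Mmp9 was at 271 and 23.6 CPM, Cxcl3 at 1165 and 128 CPM and Inhba at 265 and 99.9 CPM. Their part in the values of this class was not tested. Hilpda (422 and 176 CPM, ratio 0.418) and Mxi1 (90.3 and 53.3 CPM, ratio 0.590) had the lowest ratios, and Eno3 (19.4 and 36.7 CPM, ratio 1.89) and Mif (618 and 799 CPM, ratio 1.29) the highest. In monocyte-like cells, gated on Ly6c2 and Plac8, the medians were 0.897 and 0.872: 1 of 21 and 0 of 13 genes were higher against 21.7% of all genes, and 6 and 6 lower against 16.1%. Hilpda was at 336 and 111 CPM there (ratio 0.329, interval 0.276 to 0.391) and Ndrg1 at 228 and 105 CPM (ratio 0.458), while Mif was at 460 and 570 CPM (ratio 1.24) and Pfkfb4 at 28.4 and 34.0 CPM (ratio 1.20). Cxcl3 was at 616 and 59.4 CPM and Inhba at 290 and 88.5 CPM in these cells, and the medians in Xist cells were 0.843 and 0.894.

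In cDC2-like cells (111 and 93 cells) the medians were 1.10 and 1.02, with 4 of 19 and 4 of 13 genes higher against 25.4% of all genes and 2 and 5 lower against 24.8%. Bnip3 (29.8 and 53.9 CPM) and Mif (309 and 509 CPM) were at the high end, and Ddit4 (29.8 and 6.74 CPM) and Pfkl (41.3 and 21.9 CPM) at the low end. In the Xist cells of this class (91 and 59 cells) the glycolytic median was 1.05 and the HIF median 0.626. In migratory dendritic-like cells (108 and 102 cells) the medians were 1.07 and 0.893, with 3 of 18 and 3 of 13 genes higher against 24.4% and 3 and 5 lower against 27.2%. Ndrg1, at 282 and 147 CPM, was lower there (ratio 0.521, interval 0.394 to 0.681), as was Bnip3 (47.1 and 29.4 CPM), and Bnip3l (80.7 and 111 CPM) and Mif (241 and 330 CPM) were higher. The medians in Xist cells were 1.10 and 1.04. Both classes are small, so counting error alone calls many genes.

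Among lymphocytes, CD8 T-like cells (225 and 283 cells) had medians of 1.06 and 1.15, with 0 of 20 and 4 of 13 genes higher against 15.9% of all genes and 4 and 3 lower against 25.9%. Ankrd37 (21.8 and 35.6 CPM) and Bnip3 (33.4 and 53.8 CPM) were highest in ratio, and Eno3 (73.0 and 24 CPM, ratio 0.329) and Slc16a1 (33.4 and 18.2 CPM) lowest. By sex-linked transcripts the medians were 1.16 and 1.20 in Xist cells (136 and 146 cells) and 0.898 and 0.892 in Y-linked cells (60 and 66 cells). In Xist cells 4 of 20 and 6 of 13 genes were higher, beside 1727 of all 8474, and 2 and 2 lower, beside 2772. In Y-linked cells 2 of 20 and 1 of 12 were higher, beside 2438 of all 8294, and 6 and 4 lower, beside 2741. With so few cells counting error alone calls many genes, and the difference between the sexes was not tested. Regulatory T-like cells (81 and 65 cells) had the lowest glycolytic median, 0.799, with 2 of 21 genes higher against 29.3% of all genes and 11 lower against 32.5%, and an HIF median of 0.945 with 3 of 13 higher and 5 lower. Bnip3 was at 83.8 and 25.8 CPM there (39 and 7 UMIs) and Hilpda at 335 and 151 CPM, while Mif was at 576 and 733 CPM and Hif1a at 655 and 784 CPM. The cycling markers Mki67 and Top2a summed to 269 and 721 CPM in this class and 7 monocyte markers to 1363 and 894 CPM, and their part in these values was not tested. Other T cells (178 and 180 cells) had medians of 0.984 and 1.09, with 4 of 21 and 2 of 13 higher against 23.8% and 6 and 3 lower against 25.6%. Their extremes were Slc16a3 (41.8 and 53.4 CPM) and Mif (474 and 596 CPM) at the high end and Ddit4 (70.8 and 42.7 CPM) and Pdk1 (38.3 and 26.7 CPM) at the low end. NK-like cells (218 and 220 cells) had medians of 0.961 and 0.952, close to the median of 0.953 over all genes. Of their genes, 1 of 19 and 1 of 12 were higher against 13.6% and 4 and 2 lower against 25.5%. Slc2a3 (25 and 33.0 CPM) and Hk1 (51.9 and 64.1 CPM) were at the high end there, and Pdk1 (23.1 and 13.6 CPM) and Hk2 (32.7 and 20.4 CPM) at the low end. In Xist cells the medians were 0.998 and 1.18 for other T cells and 0.911 and 0.847 for NK-like cells.

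Stromal-like cells, gated on collagen genes (155 and 220 cells), had medians of 1.12 and 1.06, with 4 of 19 and 3 of 14 genes higher against 15% of all genes and 1 and 1 lower against 21.8%. Mif (358 and 622 CPM, ratio 1.74) and Eno3 (59.1 and 87.2 CPM) were highest in ratio, and Hilpda (41.0 and 25.5 CPM) and Hk2 (52.9 and 40.0 CPM) lowest. Of these cells, 89.0% in the control and 91.8% in the Lyz2-icre library held both Xist and Y-linked UMIs or neither, and Spp1 in them was at 234 and 191 CPM. Ptprc, the gene of the sorting marker CD45, was at 31.5 and 19.8 CPM in them, against 460 and 435 CPM in macrophage-like cells. Whether this class holds host stromal cells or MC38 tumour cells was not tested.

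Mif and Hilpda kept their direction across all 10 classes. Of the 27 genes at 10 CPM or more in every class, 2 (Mif and Ankrd37) were higher in the Lyz2-icre library in every class, against 2.93% of the 5801 genes that passed this filter, and 1 (Hilpda) was lower in every class, against 2.76%. These genes were singled out after their values were seen, and such small counts say nothing about the gene groups. The counting interval lay above 1 in 10 classes for Mif and in 3 for Ankrd37, and below 1 in 8 for Hilpda. Mif ratios ran from 1.23 in NK-like cells to 1.74 in stromal-like cells, and Hilpda ratios from 0.329 in monocyte-like to 0.867 in NK-like cells. By sex-linked transcripts, Mif was above 1 in Xist cells of all 8 classes with enough cells (1.08 to 2.02) and in 2 of 3 classes of Y-linked cells (0.998 to 1.35). Hilpda was below 1 in 7 of 8 classes of Xist cells, the exception being macrophage-like cells at 1.31, and in 3 of 3 classes of Y-linked cells (0.225 to 0.656). The 6 neutrophil markers were also lower in sum in the Lyz2-icre library in all 10 classes, from 31.4 to 1340 CPM over the classes of the control library and from 4.20 to 282 CPM over those of the Lyz2-icre library, with 4 of 6 at 0 in Lyz2-icre cDC2-like and migratory dendritic-like cells. The part of neutrophil RNA in the Hilpda values was not tested.

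**Figure D4:**
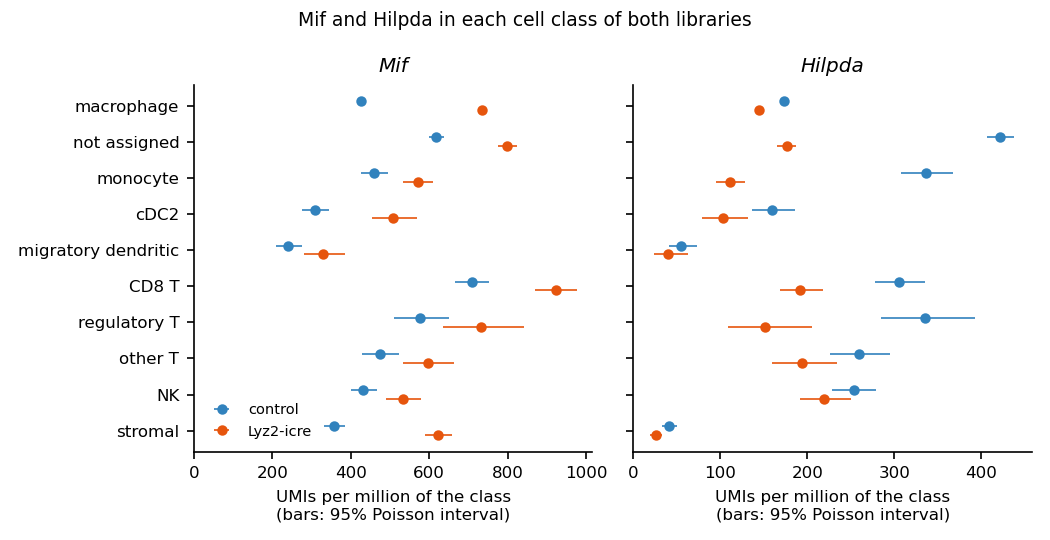
Level of Mif (left) and Hilpda (right) in CPM of each cell class in the control library (blue) and the Lyz2-icre library (orange), with 95% Poisson intervals. Mif lies farther right in the Lyz2-icre library and Hilpda farther left in all 10 classes.

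The class with the highest level differed between the libraries for most of the 38 genes. In each library the class with the highest level of each gene was taken, and 17 of the 38 genes had the same class in both. Genes under 10 CPM, such as Adm, and small classes were included, where counting error can set the highest class. Neither this count nor those by class below were made over all genes, so they are a description of these genes only. In the control library the monocyte-like, regulatory T-like and ungated C1q-low cells were highest for 6, 5 and 4 of the 23 glycolytic genes: Gapdh was at 2295 CPM in ungated cells, 2257 CPM in regulatory T-like cells and 2173 CPM in monocyte-like cells, and lowest, 1033 CPM, in stromal-like cells. In the Lyz2-icre library the macrophage-like cells were highest for Gapdh (2443 CPM), Aldoa (864 CPM), Tpi1 (619 CPM), Pgam1 (765 CPM), Gpi1 (498 CPM), Pdk1 (41.5 CPM) and Bnip3 (147 CPM), whereas in the control library they were highest for Ldhb alone (18.6 CPM). Hif1a was highest in regulatory T-like cells in both libraries, at 655 and 784 CPM, ahead of monocyte-like cells at 412 and 440 CPM.

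**Figure D5:**
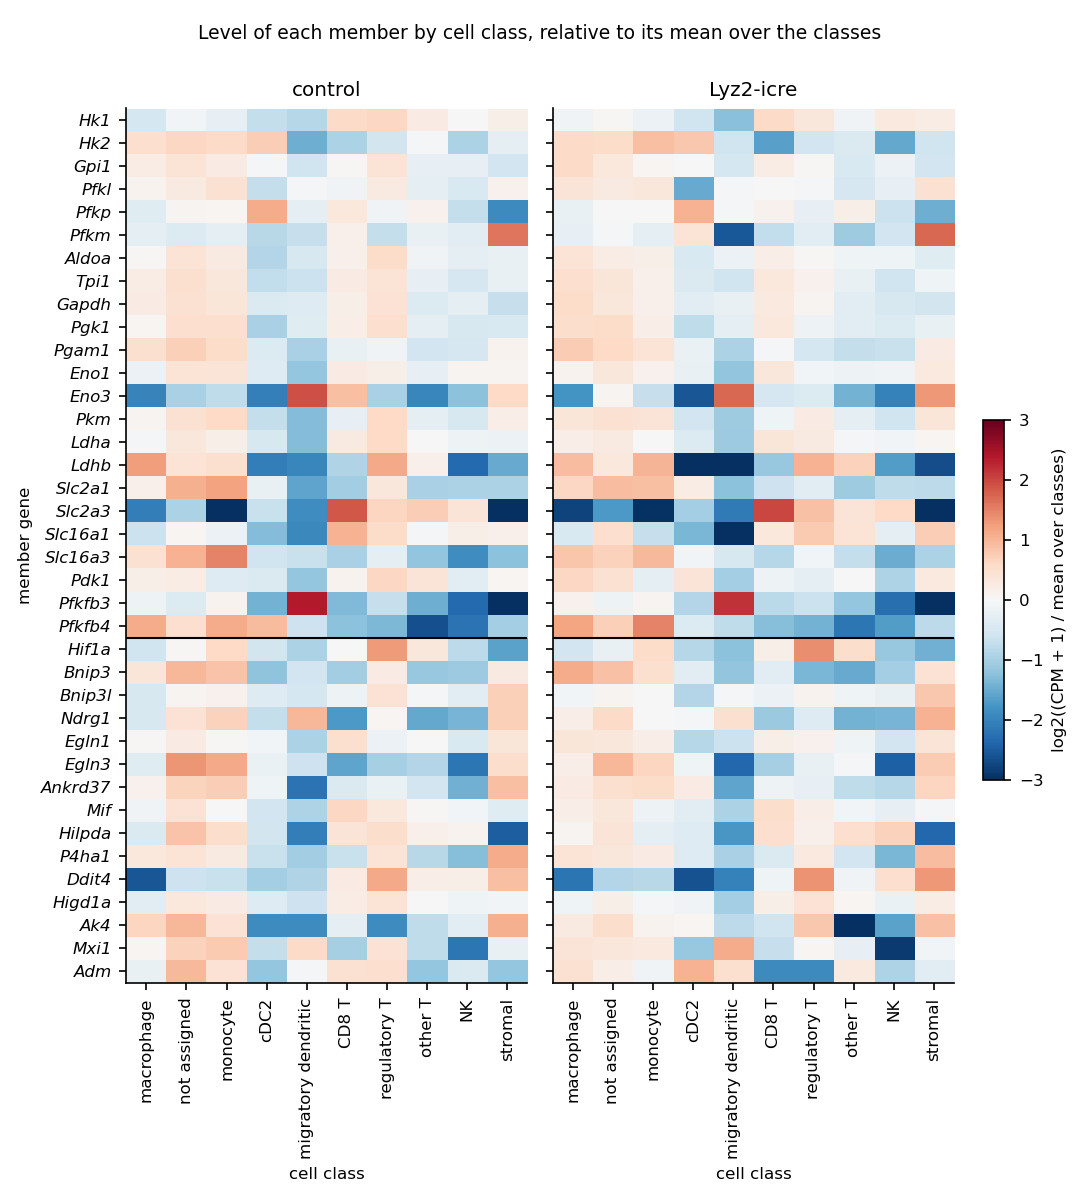
Level of each of the 38 genes in 10 cell classes, as log2 of (CPM + 1) over the mean of the gene across classes, in the control library (left) and the Lyz2-icre library (right), with glycolytic genes above the black line. Pfkfb3 and Eno3 are strongest in migratory dendritic-like cells, Slc2a3 in CD8 T-like cells and Hif1a in regulatory T-like cells in both libraries.

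Several enzymes and transporters are made by more than 1 gene, and the classes differed in which one they used. The shares are of UMIs, so they compare classes and not the absolute amount of each transcript, since capture at the 3′ end differs between genes. Slc2a1 gave 96.4% of Slc2a1 and Slc2a3 UMIs in control macrophage-like cells and 98.1% in Lyz2-icre ones, but 37.5% (interval 30.2 to 45.3%) and 35.5% in CD8 T-like cells, in which Slc2a3, the high-affinity transporter GLUT3, was at 71.6 and 88.5 CPM. Hk2 gave 29.8% and 19.7% of hexokinase UMIs in CD8 T-like cells and 38.6% and 24.1% in NK-like cells, below the macrophage-like shares. Slc16a3 gave 93.2% and 93.8% of lactate transporter UMIs in macrophage-like cells and 59.2% and 72.8% in CD8 T-like cells. In migratory dendritic-like cells Pfkfb3 was at 278 and 187 CPM, so that Pfkfb4 gave 2.75% and 3.26% of the pair, against 37.4% and 37.8% in macrophage-like cells, and Eno1 gave 51.1% and 55.2% of Eno1 and Eno3 UMIs, against 97.3% and 97.4%. Among the 10 classes Pfkp, the platelet-type phosphofructokinase, was highest in cDC2-like cells (437 and 401 CPM). There it gave 91.4% and 94.8% of Pfkl and Pfkp UMIs. In cDC1-like cells (26 and 36 cells), a class too small for this comparison, Pfkp was at 590 and 491 CPM. Pfkm, the muscle form, was highest among the 10 classes in stromal-like cells (14.8 and 18.3 CPM). Ldha gave nearly all lactate dehydrogenase UMIs in all 10 classes, 97.4% and 98.2% in macrophage-like cells and 99.6% and 99.7% in CD8 T-like cells. Bnip3 gave 51.7% and 58.0% of Bnip3 and Bnip3l UMIs in macrophage-like cells and 25.6% and 25.6% in NK-like cells. Egln3 gave 29.2% and 33.0% of Egln1 and Egln3 UMIs in macrophage-like cells, 54.0% and 46.6% in ungated C1q-low cells and 12.7% and 11.1% in NK-like cells.

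Other genes of the same pathways were set beside these in macrophage-like cells. Of 34 further glycolysis and carbohydrate genes, 19 reached 10 CPM, with a median ratio of 0.970, 2 called higher and 0 lower, beside 3.17% and 5.98% of all genes. The genes named here are the extremes among those at 20 CPM. Hk3, a hexokinase of myeloid cells, was at 42.7 and 61.3 CPM (ratio 1.44), Pgm1 at 26.4 and 35.1 CPM and Pdk3 at 23.3 and 28.9 CPM, and the lowest ratios were those of Pgm2 (21.3 and 17.7 CPM), the mitochondrial pyruvate carrier gene Mpc1 (196 and 174 CPM) and Gpd2 (34.8 and 31.4 CPM). Of 40 further HIF-related genes, 28 reached 10 CPM, with a median of 1.05, 9 higher and 2 lower, beside the same shares of all genes. Arg1 (689 and 1123 CPM), the glycogen synthase gene Gys1 (20.1 and 31.3 CPM) and Ero1a (97.4 and 144 CPM), an oxidase of the endoplasmic reticulum, were at the high end, and Maff (68.8 and 46.2 CPM), the transferrin receptor gene Tfrc (23.3 and 19 CPM) and Cxcr4 (94.8 and 83.9 CPM) at the low end. All 25 nuclear genes of oxidative phosphorylation reached 10 CPM, with a median of 1.01. Beside the same shares of all genes, 0 of them were higher and 1 lower, Ndufa4, at 163 and 121 CPM. In Xist cells alone the medians of these 3 lists were 0.980, 1.28 and 1.02, and in Y-linked cells 0.996, 0.947 and 1.03. By medians, the enzymes and HIF genes described above thus differed more between the libraries in Xist cells than these 3 lists did. The further HIF list (1.28) lay between them and the other 2. In the further glycolysis list 4 of 19 genes were called higher in Xist cells and 3 lower, against 5.92% and 11.2% of all genes. The lists were chosen with earlier results of these data known, so this contrast is a description.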

How the data were processed

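Per the labels' protocols, libraries were made with the 10x Genomics Chromium 3′ kit (V3) from sorted cells. Per the submitters' processing notes, reads were handled with bcl2fastq 5.0.1 and Cell Ranger on build mm10, and the file headers give Cell Ranger 8.0.1. The authors deposited raw UMI counts per gene and cell. The annotation release and whether intronic reads were counted are not given in the sources used here.

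Barcodes below 300 genes or 500 UMIs, or above 15% mitochondrial UMIs, were removed. Classes were gated on summed marker UMIs per 10000, with thresholds set after the data were seen. Macrophage-like cells needed at least 25 C1q UMIs per 10000 and other classes fewer than 15. Cells that passed more than 1 gate (669 control, 844 Lyz2-icre), which include doublets of unlike cells, were set aside, and no other doublet call was made. Counts were summed per class and library and given as CPM of the class, with exact Poisson intervals. Ratios had nothing added and carry exact conditional binomial intervals. Genes at 10 CPM in the higher library entered medians, and a call needed a level 25% higher or 20% lower. With 1 library per genotype no test was run and no p-value is given. All 38 genes are accounted for. In classes other than macrophage-like cells, the 2 highest and 2 lowest ratios at 20 CPM and 30 UMIs are named, as are the 3 highest and 3 lowest of the further HIF and glycolysis lists. Members and lists were chosen with earlier results of these data known. The ratio and interval were tested on simulated data. Promoter sequences are from RefSeq (GRCm38.p6). Python 3.11.15, scipy 1.17.1 and scanpy 1.11.5 were used. Alternatives covered cell filters, Leiden classes, scaling, thinning, added CPM, level filters and subsets of cells.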

Additional observations from a re-analysis of the deposited data

Results flagged for a closer look

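In macrophage-like cells the ratio, Lyz2-icre over control, went opposite ways in cells with Xist only and cells with Y-linked transcripts only for both gene group medians and for 7 of 35 genes, against 1.02% of all genes. None of these differences was tested, since each sex and genotype is 1 set of cells. The glycolytic median was 1.43 in Xist cells and 0.939 in Y-linked cells, and the HIF median was 1.53 and 0.910. Of single genes at least 25% higher in Xist cells and at least 20% lower in Y-linked cells, Slc2a1 was at 1.76 and 0.734, Hk2 at 1.29 and 0.700, and Pfkp at 1.26 and 0.777. Pfkfb3 was at 1.32 and 0.580, Ndrg1 at 1.80 and 0.709, and Egln3 at 2.59 and 0.720. Hilpda was at 1.31 and 0.418.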

How the results depend on the processing

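The median ratios in macrophage-like cells, 1.18 for glycolytic and 1.24 for HIF genes, stayed above 1 under every alternative run but 1. In Y-linked cells alone they reversed to 0.939 and 0.910, and 15 of 32 genes stayed on the same side of 1. By the rule for calls 2 genes were higher there and 9 lower, against 11.9% and 8.18% of all genes. Of genes called higher over all cells, Pdk1 (0.904), Bnip3 (0.993), Bnip3l (0.910), Egln3 (0.720) and Ankrd37 (0.954) were below 1 in Y-linked cells. In Xist cells alone the medians were 1.43 and 1.53 and 27 genes were higher, against 5.92% of all genes. The medians were 1.23 and 1.30 after thinning to 2000 UMIs, 1.22 and 1.30 as means of per-cell CPM, and 1.22 and 1.30 with median-of-ratios scaling. The glycolytic median was 1.21 with Leiden classes and the HIF median 1.20 with 20 CPM added. With the ungated C1q-low cells included, an alternative chosen after seeing the data, they were 1.13 and 1.19, with 1 gene lower. Against 12 genes called higher, 7 were called with 20 CPM added and 2 at 1.5-fold, and 1 gene, Slc2a3, was lower with no level filter. The shares of all genes called at these settings, or with the ungated cells included, were not counted. The cause of the shifts between alternatives was not tested. In the control library 1 gene was highest in macrophage-like cells, and 2 after thinning (9 classes) and 2 with Leiden classes (7 classes). Of the other classes, 4 of 9 had each median above 1, and with Leiden classes 6 of 6 did for both groups. Leiden clustering also used the cells that the gates set aside for passing more than 1 gate. No paired analysis was possible because each genotype has 1 library. Intervals cover counting error in 1 library and say nothing of the spread between animals, genes under 10 CPM entered no median, and classes under 50 cells were not compared.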
